A study of Rattus norvegicus with 12 samples.

Results

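The 9 enzymes described here begin or carry out the breakdown of amino acids in the liver, and all 9 were found by symbol among the 14692 genes listed for regenerating rat liver. They were TAT, HPD, HGD and FAH of the tyrosine pathway, TDO2 for tryptophan, HAL for histidine, SDS for serine, and CTH and BHMT for the sulfur amino acids. Levels are RPKM, read numbers divided by transcript length and by how many reads of the library were mapped, so that genes can be compared with each other per length.

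Whole liver came from male Sprague Dawley rats of 3 surgical groups, collected 0, 4, 12 and 24 h after 2/3 partial hepatectomy (PH), which gave 12 columns of values, 1 for each group and time. Control rats had a sham biliary fistula, and the other groups had a catheter in the bile duct that drained bile outside the body from 24 h before PH. In 1 of the drained groups sodium taurocholate, a conjugated bile acid, was infused into the duodenum, and all rats, controls included, carried a duodenal catheter and received fluid through it. Each column combined 2 sequencing runs, 1 on the RNA of 1 rat and 1 on the combined RNA of 3 further rats, so the spread between the 4 rats of a column is not known. No unoperated liver was measured, and the 0 h columns already followed catheter surgery. The drained groups are named BF and BA after the sample titles. The sample descriptions give the bile acid infusion to the samples titled BF and withhold it from those titled BA, the opposite of how the study itself used these letters, so the labels alone do not settle which drained group received bile acid. CYP7A1, the rate-limiting enzyme of bile acid synthesis, is repressed when bile acids return from the gut. It stood at 387, 13.8, 136 and 334 RPKM in BF at 0, 4, 12 and 24 h, at 54.9, 1.81, 3.17 and 68.8 in BA, and at 60.0, 4.59, 8.53 and 57.3 in Control. BF was thus above both other groups at every time. Comparisons between times do not depend on these names.

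The liver is the main site where surplus amino acids are degraded, which yields glucose precursors, ketone bodies and nitrogen for urea. TAT moves the amino group off tyrosine, HPD and HGD oxidise the ring, and FAH cuts the final product into fumarate and acetoacetate. TDO2 opens the indole ring of tryptophan, HAL removes ammonia from histidine, and SDS turns serine into pyruvate. BHMT remakes methionine from homocysteine with betaine as the methyl donor, while CTH splits cystathionine to give cysteine. TAT, TDO2 and SDS are classical targets of glucocorticoids, and TAT and SDS also respond to glucagon through cAMP.

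The start regions of 4 of the enzymes are shown because their transcripts moved together or apart after PH, as described further on: TAT and TDO2 rose in parallel, BHMT fell after 4 h, and CTH fell earlier. RefSeq windows on the GRCr8 build were matched for 7 of the 9 enzymes (TAT, TDO2, HPD, HGD, FAH, CTH and BHMT). Each window holds 300 bases, 250 before and 50 after the annotated start, and is written 5′ to 3′ on the gene's strand. They lie at chr19:54856354-54856653 (plus strand) for TAT, chr2:169585537-169585836 (minus strand) for TDO2, chr2:26614380-26614679 (minus strand) for BHMT and chr2:249661017-249661316 (minus strand) for CTH. Capitals mark matches to the 2 searched motifs found in them, TATAAA and CCAAT, the latter on either strand so that it may read ATTGG.
TAT: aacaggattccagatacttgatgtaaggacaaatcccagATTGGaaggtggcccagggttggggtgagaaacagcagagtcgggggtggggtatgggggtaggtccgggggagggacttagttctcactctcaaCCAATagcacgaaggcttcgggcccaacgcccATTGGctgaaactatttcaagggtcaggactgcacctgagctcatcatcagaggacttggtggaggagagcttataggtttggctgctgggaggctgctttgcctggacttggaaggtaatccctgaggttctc
TDO2: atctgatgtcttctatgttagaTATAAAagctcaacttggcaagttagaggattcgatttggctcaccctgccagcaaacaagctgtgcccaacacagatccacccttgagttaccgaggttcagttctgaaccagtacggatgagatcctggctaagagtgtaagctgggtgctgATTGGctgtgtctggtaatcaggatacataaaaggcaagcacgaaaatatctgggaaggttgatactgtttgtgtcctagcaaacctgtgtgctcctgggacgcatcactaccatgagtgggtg
BHMT: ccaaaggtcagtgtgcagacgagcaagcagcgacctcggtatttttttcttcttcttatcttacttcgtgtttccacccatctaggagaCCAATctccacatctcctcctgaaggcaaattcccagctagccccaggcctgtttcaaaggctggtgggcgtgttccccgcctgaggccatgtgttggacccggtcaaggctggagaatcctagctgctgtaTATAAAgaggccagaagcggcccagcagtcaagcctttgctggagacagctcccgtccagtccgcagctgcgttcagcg
CTH: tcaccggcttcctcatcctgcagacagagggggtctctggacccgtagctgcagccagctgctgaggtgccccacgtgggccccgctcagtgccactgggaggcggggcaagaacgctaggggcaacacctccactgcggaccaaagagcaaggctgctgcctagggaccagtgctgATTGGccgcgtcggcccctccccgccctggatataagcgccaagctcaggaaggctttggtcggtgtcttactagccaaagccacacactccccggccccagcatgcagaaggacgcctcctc

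CCAAT, the letters of the CCAAT box, lay in 5 of the 7 windows against 37.49% of all 33469 rat windows. In TAT it occurred 3 times, starting 211, 116 and 84 bases before the annotated start, and in TDO2 and CTH once each on the opposite strand, 74 and 73 bases before it. TATAAA was found in 2 windows, in BHMT at 29 bases and in TDO2 at 228 bases before the start, against 14.22% of all windows. AGAACA, an arm of the glucocorticoid response element, TGACGTCA and the shorter TGACG contained in it, which are cAMP response element letters, and TTGCGCAA, a C/EBP motif, were in none of the 7 windows, against 20.68%, 1.829%, 21.2% and 0.1703% of all windows. Both strands were searched, and the matches are letters in these windows and nothing more.

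The sums of RPKM per column ran from 727435 to 982826, and the 9 enzymes together made up 0.364% (BF 12 h) to 1.67% (Control 4 h) of them. Hepatocyte markers dominated every column (4 of 5 measured), with sums of 131498 to 150626 RPKM at 0 h and 78866 to 84249 at 12 h. Albumin at 12 h stood at 45.3%, 46.1% and 46.8% of its 0 h value in Control, BF and BA. Pericentral hepatocyte markers (5 of 6) summed to 1775 to 3481 RPKM at 0 h and 900.1 to 1060.2 at 12 h, and periportal ones other than SDS and HAL (4 of 4) to 1519.7 to 2692 and 1123 to 1671. The sums of general and zonal hepatocyte markers were thus lower at 12 h than at 0 h in all 3 groups. So were the 5 enzymes called lower at 12 h. Not every single marker fell. SERPINA1, a hepatocyte marker, had its lowest value of all columns at Control 0 h (14570 RPKM). CYP2F4, a periportal marker, had its highest at Control 12 h (44.8 RPKM). The BA 4 h column stood apart in that albumin alone took 30.9% of its sum, against 5.60% to 13.4% in the other 11 columns, and its median gene lay at -0.31 on the log2 scale from the average column. The BF 12 h column stood apart by pancreatic acinar transcripts, summed over 7 of 7 markers at 128 RPKM against 5.09 to 23.0 elsewhere, with CTRB1, PRSS1, CPB1, AMY2 and PNLIP at 0 in some columns. Leukocyte markers (4 of 4) summed to between 8.37 RPKM at Control 0 h and 65.7 at Control 12 h, and cholangiocyte markers (2 of 4) to between 4.82 and 13.4. The part of these shifts in the results was not tested, apart from repeating the fits without the BA 4 h or the BF 12 h column. In whole liver, fewer cells of a type and less RNA per cell cannot be told apart.

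**Figure D1:**
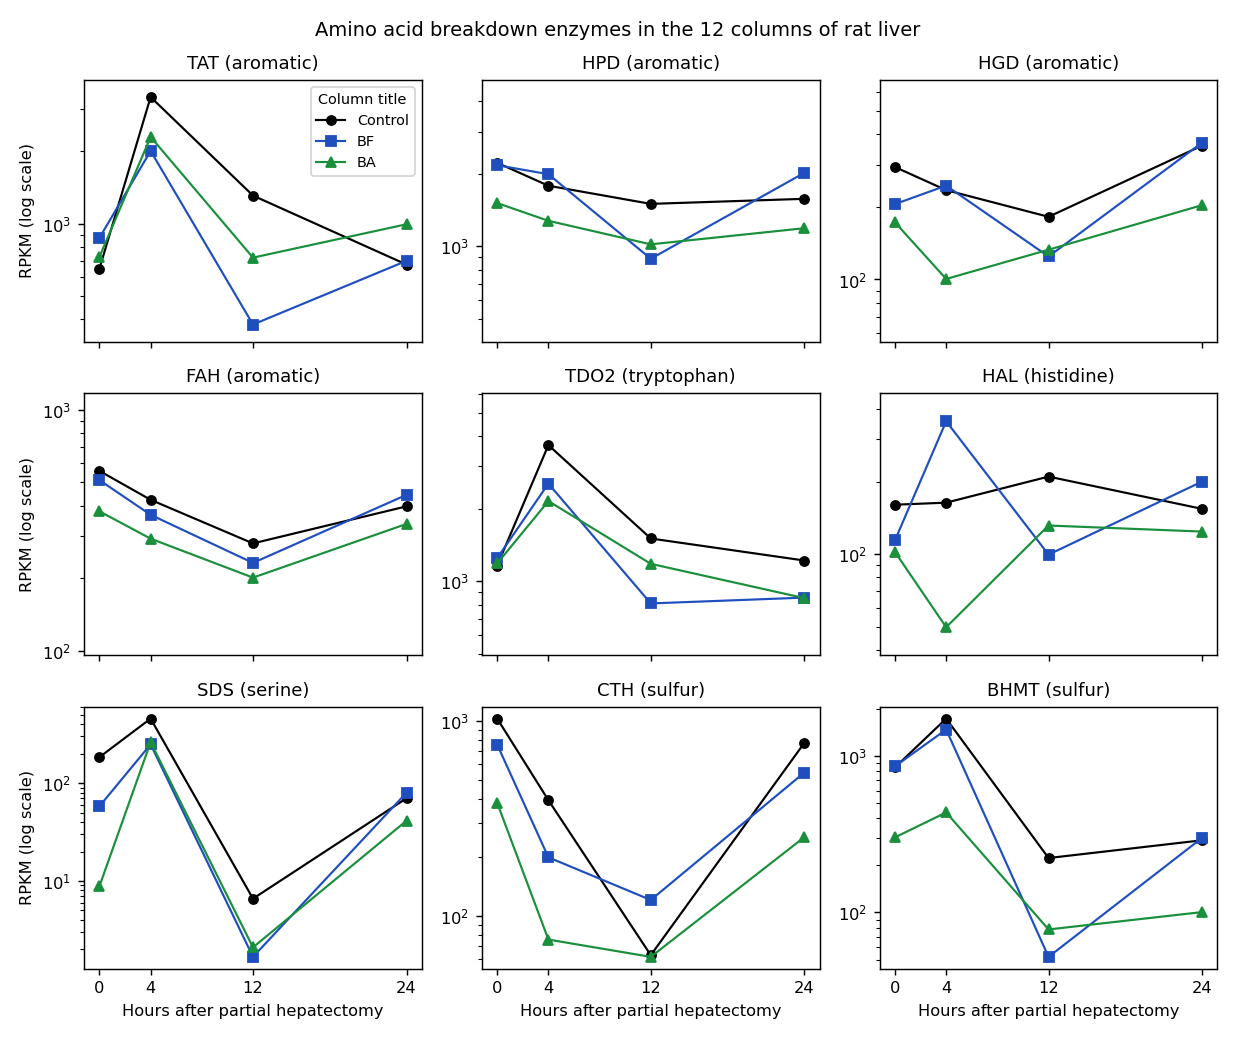
RPKM on a log scale (vertical) against hours after partial hepatectomy (horizontal) for the 9 enzymes, 1 point per column, with the Control, BF and BA columns as separate lines. TAT and TDO2 peak at 4 h in all 3 lines, while SDS falls from 249 to 455 RPKM at 4 h to 1.68 to 6.60 RPKM at 12 h.

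Time after PH was tested with limma on log2(RPKM + 1) over all 12 columns, with the 3 surgical groups as blocks. Its standard errors (SE) therefore measure how differently the groups moved, not the spread between rats. A gene was called when its Benjamini-Hochberg adjusted p, over the 8459 genes that averaged 1 RPKM or more, was under 0.05. All 9 enzymes passed that filter.

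The enzymes split at 4 h, and at 12 h 5 of 9 were lower while TAT, TDO2 and HAL were near their 0 h level in the fit (-0.07, -0.09 and 0.18). At 4 h against 0 h, 3 of 9 were called higher (TAT, TDO2 and SDS) and 2 lower (CTH and FAH), where 12.9% of all tested genes were called higher and 32.4% lower. At 12 h none was called higher and 5 were called lower (SDS, CTH, BHMT, FAH and HPD), with HGD as the only further one at an unadjusted p under 0.05, where 9.03% of all genes were higher and 22.5% lower. At 24 h only BHMT was called, lower, where 30.6% of all genes were higher and 5.54% lower. The median change of the 9 enzymes was 0.21, -0.81 and -0.29 on the log2 scale at 4, 12 and 24 h, beside -0.20, -0.12 and 0.21 for all genes tested. When the columns were rescaled on their median gene, the all-gene split at 4 h became 1770 higher and 1769 lower in place of 1090 and 2743. At 12 h it became 1332 and 1420 in place of 764 and 1900, and at 24 h 1239 and 1067 in place of 2587 and 469. Among the enzymes that rescaling took FAH out of the 4 h calls and put it into the 24 h calls. Rescaling without the 10 most abundant genes of each column gave 1317 higher and 2135 lower at 4 h and 1571 and 1050 at 12 h, and it took out FAH at 4 h and HPD at 12 h.

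**Figure D2:**
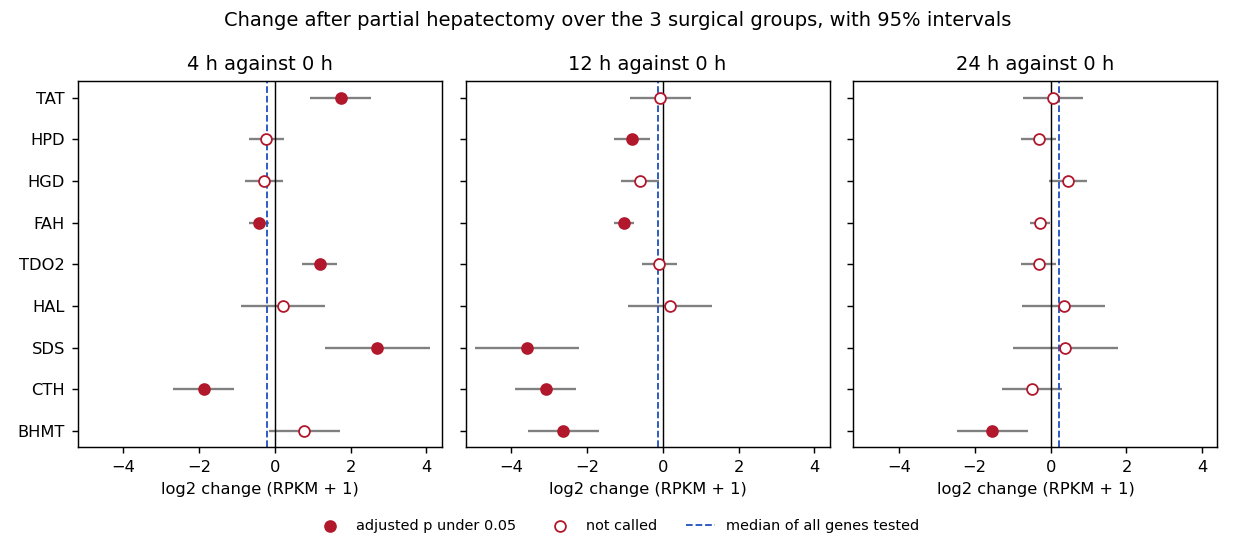
Fitted change from 0 h on the log2(RPKM + 1) scale (horizontal) for each enzyme (vertical) at 4, 12 and 24 h, with 95% intervals as lines. Filled points passed an adjusted p of 0.05 and the dashed line is the median of all 8459 genes tested. TAT, TDO2 and SDS lie to the right at 4 h, and SDS, CTH and BHMT lie below -2 at 12 h.

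TAT and TDO2, the entry enzymes for tyrosine and tryptophan, shared a peak at 4 h. Both were lower at 12 h than at 4 h in every group, but in Control still above their 0 h value. TAT in Control was 650.3, 3354, 1307 and 676 RPKM at 0, 4, 12 and 24 h. In BF it was 873, 2003, 381 and 701 RPKM, and in BA 728, 2291, 723 and 994 RPKM. Every 4 h value lay above every value at the other times. The fitted rise at 4 h was 1.74 on the log2 scale (SE 0.36, adjusted p = 0.00454), and at 12 and 24 h the changes were -0.07 and 0.06 (adjusted p = 0.903 and 0.905). At 12 h the groups stood on different sides of their own 0 h value, with Control at 201% of it, BA at 99.3% and BF at 43.7%.

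TDO2 followed the same course at a smaller amplitude. Its Control values were 1164, 3681, 1507 and 1221 RPKM at 0, 4, 12 and 24 h. In BF they were 1249.9, 2547, 810.2 and 857 RPKM, and in BA 1188, 2155, 1183 and 852 RPKM. The 4 h values again lay above all others. At 12 h Control stood at 129% of its 0 h value, BA at 99.6% and BF at 64.8%. The rise at 4 h was 1.18 (SE 0.20, adjusted p = 0.00202), and the changes at 12 and 24 h were -0.09 and -0.32 (adjusted p = 0.772 and 0.24). Over the 12 columns TAT and TDO2 had a Pearson correlation of 0.91 on the log2 scale, given as a description because the columns share surgical groups and times.

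The enzymes further down the tyrosine pathway did not share the peak of TAT. HPD, which acts directly after TAT, was 2224, 1787, 1502 and 1577 RPKM in Control at 0, 4, 12 and 24 h. It was 2174, 1994, 889 and 2021 RPKM in BF, and 1514, 1278, 1020.3 and 1190.4 RPKM in BA. Each group had its lowest value at 12 h. The change at 12 h was -0.81 (SE 0.21, adjusted p = 0.0178), and at 4 h it was -0.23 (adjusted p = 0.388). Without the Control, the BF or the BA columns the 12 h call was lost, with adjusted p of 0.062, 0.0742 and 0.0705.

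FAH, the last enzyme of the pathway, fell by 12 h to a similar share of its 0 h level in all groups. In Control it was 559, 424, 279 and 398 RPKM at 0, 4, 12 and 24 h. The BF values were 511, 367, 232 and 444 RPKM, and the BA values 379.6, 292, 201 and 336 RPKM. At 12 h the groups stood at 45.3% to 53.0% of their own 0 h value, beside 45.3% to 46.8% for albumin. The fitted change at 12 h was -1.02 (SE 0.12, adjusted p = 0.000737). At 4 h it was -0.42 (adjusted p = 0.0165), a call that was lost under 6 alternatives, among them the fit without the BA 4 h column (adjusted p = 0.0541).

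HGD, which opens the aromatic ring, passed the test at no time. Its Control values were 293, 235, 182 and 359.7 RPKM, its BF values 206, 245, 125 and 370.1 RPKM, and its BA values 173, 101, 133 and 204 RPKM at 0, 4, 12 and 24 h. All 3 groups were below their 0 h value at 12 h and above it at 24 h. The changes were -0.59 at 12 h (adjusted p = 0.0712) and 0.46 at 24 h (adjusted p = 0.134). Without the BA 4 h column the 12 h change was called (adjusted p = 0.0371).

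SDS had the widest range of the 9 enzymes, from 1.68 to 455 RPKM. In Control it was 184, 455, 6.60 and 70.0 RPKM at 0, 4, 12 and 24 h. It was 57.9, 249, 1.68 and 79.8 RPKM in BF, and 8.85, 261, 2.10 and 41.3 RPKM in BA. Every 4 h value lay above and every 12 h value below all values at 0 h and 24 h, which overlapped with each other. From 4 h to 12 h the level dropped 68.9-fold in Control, 148-fold in BF and 124-fold in BA. From 12 h to 24 h it came back 10.6-fold, 47.5-fold and 19.7-fold.

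Against 0 h, SDS rose at 4 h by 2.71 on the log2 scale (SE 0.61, adjusted p = 0.00681) and fell by 3.58 at 12 h (adjusted p = 0.00336). The 0 h values behind these changes spread 20.8-fold between groups, from 8.85 RPKM in BA to 184 in Control. At 24 h Control stood at 38.1% of its 0 h value and BA at 466%, and the fitted change was 0.39 (adjusted p = 0.64). The 12 h call was lost without the BF columns (-3.14, adjusted p = 0.0609).

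The sulfur enzymes CTH and BHMT reached a common low at 12 h by different routes. CTH, which makes cysteine, was 1029, 392, 62.9 and 772 RPKM in Control at 0, 4, 12 and 24 h. In BF it was 756, 199.8, 121 and 544 RPKM, and in BA 379.8, 75.6, 61.6 and 254 RPKM. It was already at 19.9% to 38.1% of its 0 h level at 4 h, and at 6.11% to 16.2% at 12 h. By 24 h it was back at 66.8% to 75.1%. The changes were -1.87 at 4 h (SE 0.36, adjusted p = 0.00323), -3.08 at 12 h (adjusted p = 0.000793) and -0.49 at 24 h (adjusted p = 0.305).

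BHMT, the betaine-dependent route back to methionine, was still high at 4 h. Its Control values were 843, 1728, 223 and 289 RPKM at 0, 4, 12 and 24 h. In BF it was 857, 1471, 52.0 and 299 RPKM, and in BA 302, 435, 77.9 and 101 RPKM. Every group was above its own 0 h level at 4 h, but the rise of 0.78 was not called (SE 0.42, adjusted p = 0.154) unless the BF 12 h column (adjusted p = 0.00266) or all BF columns (adjusted p = 0.0296) were left out. From 4 h to 12 h BHMT dropped 7.77-fold in Control, 28.3-fold in BF and 5.59-fold in BA. The change from 0 h was -2.62 at 12 h (adjusted p = 0.00261) and -1.54 at 24 h (adjusted p = 0.019). At 24 h the groups stood at 33.3% to 34.9% of their 0 h level. The 24 h call was lost without the Control columns (adjusted p = 0.0997) and without the BA columns (adjusted p = 0.0735).

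HAL, the first step of histidine breakdown, had no common course. It was 160.4, 164, 209.8 and 154 RPKM in Control, 114, 356, 99.5 and 200.2 RPKM in BF, and 102, 49.7, 131 and 124 RPKM in BA. The highest and the lowest of its 12 values were thus both at 4 h, in BF and BA. The fitted changes of 0.21, 0.18 and 0.34 at 4, 12 and 24 h each had an SE of 0.49 and were not called (adjusted p = 0.747, 0.802 and 0.61). The low BA value lay in the column where albumin took 30.9% of the RPKM sum.

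The surgical groups were compared over the 4 times, with time as the block. None of the 9 enzymes was called in any of these comparisons. For BF against Control, 0.319% of all genes were called higher and 0.485% lower. For BA against Control these shares were 0% and 0.0709%, and for BF against BA 0.0118% and 0%. At an unadjusted p under 0.05, limma gave 1 enzyme for BF against Control, 7 for BA against Control and 5 for BF against BA, where it gave 1852, 1919 and 661 of the 8459 genes.

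In the BA columns most of the enzymes lay under Control. Of the enzymes, 7 of 9 were lower than Control at every one of the 4 times (HPD, HGD, FAH, HAL, SDS, CTH and BHMT), where 28.9% of all tested genes were. After either rescaling of the columns this held for 6 of 9, CTH dropping out, where 11.1% (median gene) and 18.5% (without the 10 most abundant genes) of all genes did so. None of the 9 lay under Control at every time in BF, where 27.3% of all genes did. Pericentral markers too summed lower in BA than in Control at every time, 1775 against 3345 RPKM at 0 h and 900.1 against 1025 at 12 h. That list includes OAT, itself an enzyme of amino acid breakdown (71.2 against 288 RPKM at 0 h). Periportal markers other than SDS and HAL summed lower in BA at 0, 4 and 12 h (1520 against 2692 RPKM at 0 h). At 24 h they summed higher in BA, 2004 against 1762 RPKM. The part of both marker lists in these differences was not tested. BA was under BF at every time for 2 of 9, FAH and CTH, where 10.2% of all genes were.

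The largest fitted differences of BA from Control were those of SDS, BHMT and CTH. BHMT was 2.80-fold, 3.97-fold, 2.86-fold and 2.87-fold higher in Control than in BA at 0, 4, 12 and 24 h, with a fitted difference of BA minus Control of -1.62 (95% interval -2.43 to -0.81, adjusted p = 0.0914). It was called when the BF 12 h column (adjusted p = 0.00256) or the 12 h columns (adjusted p = 0.00777) were left out. CTH was higher in Control by 2.71-fold at 0 h, 5.19-fold at 4 h, 1.02-fold at 12 h and 3.05-fold at 24 h, a fitted difference of -1.36 (95% interval -2.05 to -0.66, adjusted p = 0.0925). For SDS the ratio was 20.8-fold at 0 h and 1.70-fold to 3.14-fold later, with a fitted difference of -1.77 (95% interval -2.96 to -0.58, adjusted p = 0.135). FAH and HGD differed by -0.45 (95% interval -0.68 to -0.23, adjusted p = 0.0914) and -0.81 (95% interval -1.25 to -0.38, adjusted p = 0.0952). TAT and TDO2 differed less, by -0.17 (95% interval -0.86 to 0.52, adjusted p = 0.746) and -0.40 (95% interval -0.79 to -0.01, adjusted p = 0.213).

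In BF the distance from Control depended on the time. For BHMT the ratio of Control to BF was 0.984, 1.17 and 0.965 at 0, 4 and 24 h, while at 12 h BF was 4.28-fold lower, in the column with the pancreatic transcripts. TAT at 12 h was 3.43-fold lower in BF than in Control. CTH went the other way at 12 h, with 121 RPKM in BF against 62.9 in Control. The fitted BF minus Control difference was -0.56 for BHMT (95% interval -1.37 to 0.25, adjusted p = 0.387), -0.51 for TAT (adjusted p = 0.353) and -0.25 for CTH (adjusted p = 0.661). The largest was that of SDS, -0.96 (95% interval -2.15 to 0.23, adjusted p = 0.312). TDO2, at -0.46 (95% interval -0.85 to -0.07, adjusted p = 0.175), was the only enzyme with an unadjusted p under 0.05.

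Between the drained groups, CTH was 1.96-fold to 2.64-fold higher in BF than in BA at every time, a fitted difference of 1.11 (95% interval 0.42 to 1.80, adjusted p = 0.448). BHMT was 2.84-fold, 3.38-fold and 2.98-fold higher in BF at 0, 4 and 24 h but lower at 12 h, and the fitted 1.06 (95% interval 0.25 to 1.87) had an adjusted p of 0.52. Without the BF 12 h column it was 1.59 (adjusted p = 0.0058). Both comparisons of a drained group with Control share the Control columns.

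**Figure D3:**
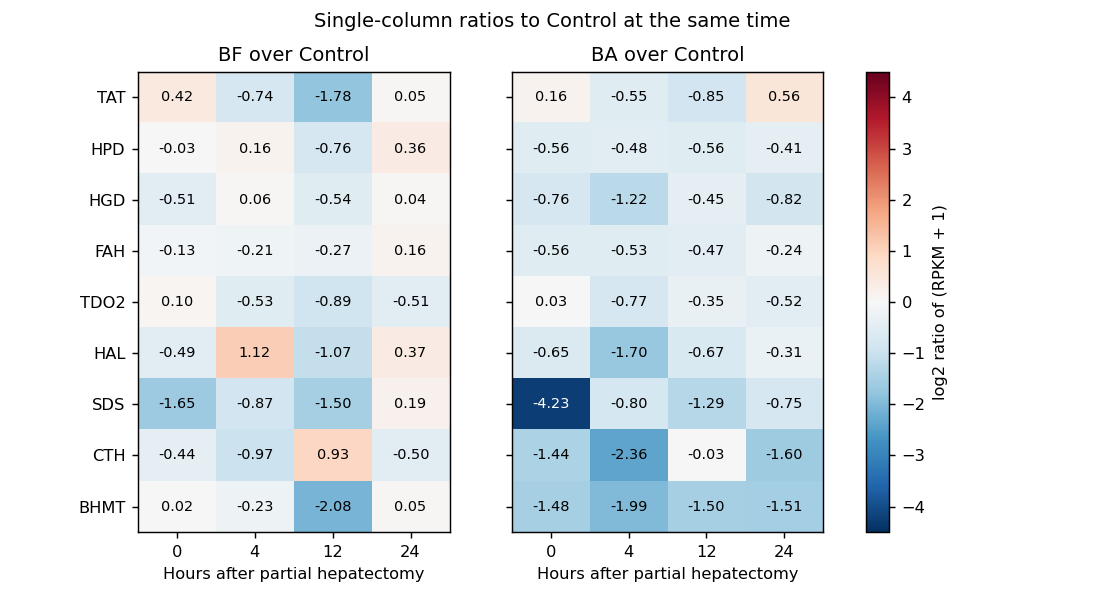
Log2 ratio of (RPKM + 1) to the Control column of the same time for the 9 enzymes (vertical) at 0, 4, 12 and 24 h (horizontal), with BF on the left and BA on the right and each cell's ratio printed. Each cell sets 1 column against 1 column and has no replicate check. In BA 7 enzymes are below 0 at all 4 times, with SDS lowest at 0 h (-4.23).

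A wider list of 67 other enzymes of amino acid breakdown, of which 57 were tested, was counted in the same fits. At 4 h 5 of 57 were called higher and 21 lower, where 12.9% and 32.4% of all genes were. At 12 h the counts were 1 and 38, where 9.03% of all genes were higher and 22.5% lower. At 24 h they were 2 and 18, where 30.6% of all genes were higher and 5.54% lower. The medians of the list were -0.32, -0.73 and -0.22 on the log2 scale at 4, 12 and 24 h. By amino acid, 10 of 11 sulfur enzymes, 11 of 15 branched chain enzymes, 6 of 11 enzymes of serine, glycine and threonine, 3 of 5 of tryptophan, 2 of 3 aromatic enzymes and the 1 of histidine were lower at 12 h. Only 2 of 6 enzymes of alanine, aspartate and glutamate were lower then, and of 5 for lysine, proline and ornithine 3 were lower and 1 higher. Without the BF 12 h column 32 of 57 were called lower at 12 h, and after either rescaling 33 (median gene) and 28 (without the 10 most abundant genes). Of all genes, 1453 of 8472 were lower without that column. After the rescalings 1420 and 1050 of 8459 were, beside 1900 as reported. At 24 h the median-gene rescaling gave 1 higher and 25 lower, where 1239 and 1067 of all genes were. The other rescaling gave 3 and 18, where 2770 and 436 of all genes were.

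GOT1 and AASS were the named enzymes of this list that rose. GOT1, the cytosolic aspartate aminotransferase and a glucocorticoid-responsive enzyme, was 96.0, 966, 153 and 186 RPKM in Control at 0, 4, 12 and 24 h. It was 104, 1139, 58.7 and 229.8 RPKM in BF, and 78.9, 769, 70.8 and 303 RPKM in BA. Its 4 h peak came at the same time as those of TAT, TDO2 and SDS, with a change of 3.34 (SE 0.33, adjusted p = 0.000299), and at 24 h the change was 1.34 (adjusted p = 0.013). AASS, the first enzyme of lysine breakdown, rose by 2.63 at 4 h (adjusted p = 0.001) and by 1.31 at 12 h (adjusted p = 0.0284). It was 117, 466, 528 and 213 RPKM in Control at 0, 4, 12 and 24 h. In BF it was 115, 796, 179 and 242 RPKM, and in BA 87.1, 767, 191 and 159 RPKM. From 4 h to 12 h it thus rose further in Control but fell in BF and BA.

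Downstream of TDO2, KMO and KYNU of the kynurenine pathway were lower at all 3 times. KMO, which hydroxylates kynurenine, was 148, 65.5, 13.9 and 47.0 RPKM in Control at 0, 4, 12 and 24 h, and its fitted changes were -1.20, -2.80 and -1.29 (adjusted p = 0.00238, 0.000148 and 0.00253). KYNU, kynureninase, changed by -1.09, -1.84 and -0.86 (adjusted p = 0.00667, 0.00124 and 0.0228). In the sulfur group CDO1, which oxidises the cysteine that CTH makes, was 1302, 1717, 151 and 532 RPKM in Control at 0, 4, 12 and 24 h. It was 1309, 1248, 294 and 519.6 RPKM in BF, and 817, 1052, 240.4 and 624 RPKM in BA. At 4 h it was above its 0 h level in Control and BA and below it in BF, a change of 0.23 that was not called (adjusted p = 0.525). The change at 12 h was -2.34 (adjusted p = 0.000943), and CDO1 was also called lower at 24 h (adjusted p = 0.0224). ETHE1, a mitochondrial sulfur dioxygenase, stayed down at 24 h (-1.75, adjusted p = 0.00183), as did CSAD of taurine synthesis (-1.36, adjusted p = 0.00862) and PRODH, proline dehydrogenase (-1.46, adjusted p = 0.00313). PIPOX, which oxidises pipecolate and sarcosine, and GPT2, an alanine aminotransferase, were lower at 4 h (-1.40 and -1.35, adjusted p = 0.0095 and 0.0115) and at 12 h (-1.71 and -1.05, adjusted p = 0.00647 and 0.0438).

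Between groups, 2 of the 57 were called lower in BF than in Control, where 0.485% of all genes were. In BA 1 of the 57 was called lower than in Control, where 0.0709% of all genes were. BCKDHB, a subunit of the branched chain ketoacid dehydrogenase, was 77.7, 62.3, 56.7 and 68.5 RPKM in Control, 20.7, 21.2, 27.8 and 45.7 in BF, and 19.0, 20.3, 16.2 and 19.5 in BA at 0, 4, 12 and 24 h. The fitted differences from Control were -1.24 for BF (adjusted p = 0.0335) and -1.77 for BA (adjusted p = 0.0119). GLUD1, glutamate dehydrogenase, was lower in BF (-0.79, adjusted p = 0.0481). The GLUD1 call was lost under either rescaling and without the BF 12 h or the BA 4 h column. The BCKDHB call was lost for BF after rescaling on the median gene and without the BF 12 h column, and for BA without the BA 4 h column. No gene at all was called for BA against Control without the filter, or without the 0, 4 or 24 h columns. Nor was any gene called for BF against Control without the 4 h columns, so these calls were lost there too. These enzymes were named because they were the only calls of the list between groups, after their values were seen.

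**Figure D4:**
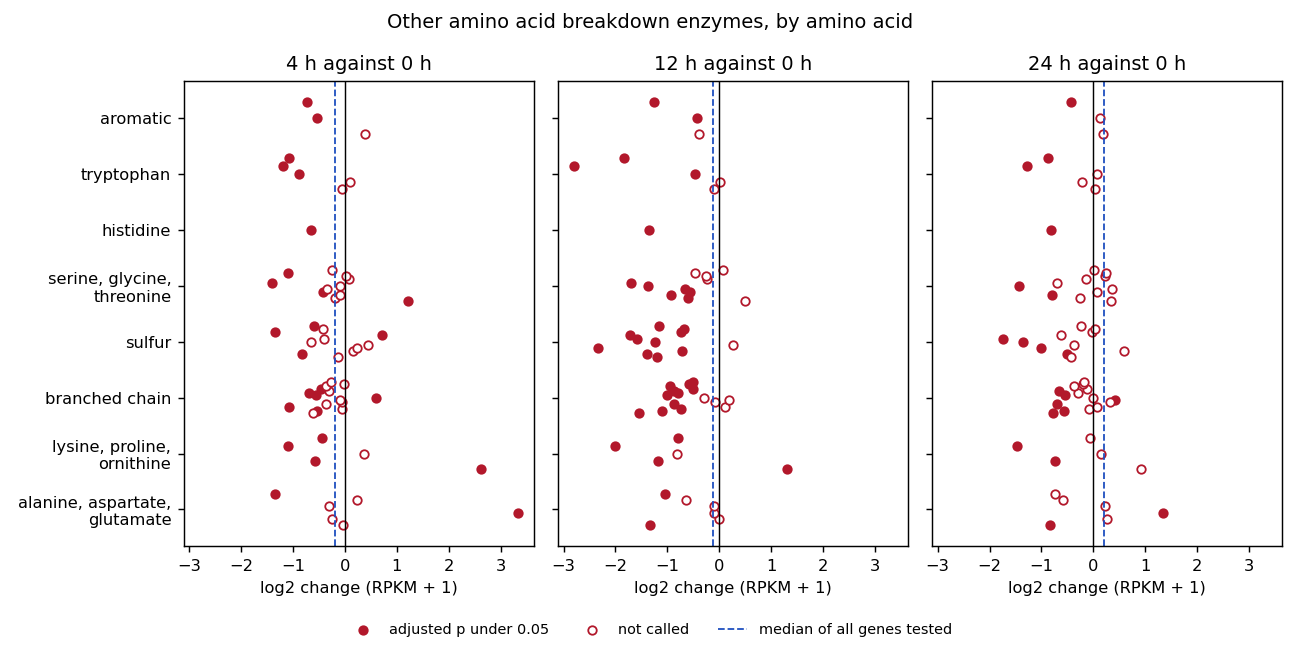
Fitted change from 0 h on the log2(RPKM + 1) scale (horizontal) of the 57 further enzymes, grouped by amino acid (vertical), at 4, 12 and 24 h. Filled points passed an adjusted p of 0.05, and the dashed line is the median of all genes tested. At 12 h 38 points are called lower and 1, AASS, is called higher, while GOT1 is the rightmost point at 4 h.

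Of 13 genes that regulate these enzymes or respond to the same hormones, 12 were measured. FKBP5, a chaperone gene induced by glucocorticoids, rose by 1.84 at 4 h, 1.10 at 12 h and 0.82 at 24 h (adjusted p = 0.00107, 0.0148 and 0.04). Its 4 h values were 82.1 RPKM in Control, 27.9 in BF and 42.8 in BA, from 10.7 to 14.9 at 0 h. PPARGC1A, a coactivator induced by cAMP, rose by 1.87 at 4 h (adjusted p = 0.000726) and by 0.86 at 24 h (adjusted p = 0.0249), at levels of 0.74 to 10.4 RPKM. CEBPB, a C/EBP factor, was called higher at 4 h (0.94, adjusted p = 0.0376), a call lost without the BA 4 h column. From 0 h to 4 h it went from 35.7 to 145 RPKM in Control and from 37.0 to 66.2 in BA. In BF it hardly moved, from 35.7 to 36.2 RPKM. After rescaling on the median gene neither FKBP5 nor PPARGC1A was called at 24 h, and without the BF 12 h column FKBP5 was not called then.

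The remaining regulators were lower or not called. NR3C1, the glucocorticoid receptor, changed by -0.62, -1.12 and -0.52 at 4, 12 and 24 h (adjusted p = 0.00242, 0.000391 and 0.00662), and GCGR, the glucagon receptor, by -0.83, -0.59 and -0.51 (adjusted p = 0.00291, 0.0186 and 0.0305). CEBPA, the C/EBP factor of resting hepatocytes, fell from between 79.8 and 111 RPKM at 0 h to between 30.5 and 35.4 at 4 h, a change of -1.49 (adjusted p = 0.000266), and was also lower at 12 h (-1.43, adjusted p = 0.000344) and 24 h (-0.63, adjusted p = 0.00758). TSC22D3, another glucocorticoid-induced gene, went against FKBP5 at 4 h (-1.27, adjusted p = 0.00555). PCK1, of gluconeogenesis, was called only at 12 h, lower (-0.94, adjusted p = 0.0263). HNF4A, G6PC and PER1 were called at no time, with adjusted p from 0.0555 to 0.676, except that without the BA 4 h column G6PC was called lower at 12 h. At 12 h the calls of GCGR and PCK1 were lost without the BF 12 h column, those of CEBPA and NR3C1 not. The same held after rescaling without the 10 most abundant genes.

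Across the 12 columns the 9 enzymes fell into looser and tighter pairs. FAH and CTH had a Pearson correlation of 0.91, HPD and FAH 0.90, HPD and BHMT 0.85, and SDS and BHMT 0.83, whereas TAT and CTH had -0.20. Among the 4389 genes outside the lists that averaged 10 RPKM or more, the pattern closest to TAT was that of FAM126B (0.95), then MGP (0.93), and the closest to TDO2 were AP1GBP1 (0.98) and MGP (0.95). Among the closest to SDS were PPIF (0.96) and ATP6V1H (0.93), to CTH SELENBP1 and HEXA (both 0.97), and to BHMT BTBD1 (0.91). For FAH they were RGD1307051 (0.98) and GSTA4 (0.97), for HGD SNX2 (0.95) and LRPPRC (0.93), for HAL SNAP29 (0.89), and for HPD H2-EA and GPX4 (both 0.85). These are descriptions over 12 columns that share times and surgical groups.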

How the data were processed

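The poly(A)+ part of the total RNA of whole liver was made into TruSeq libraries and sequenced by the authors. The deposited values are RPKM, 1 column for each of the 12 group and time combinations. The authors combined 2 runs in each column. Processing notes name CASAVA, Bowtie 0.12.2 and the builds rn4 and mm8, with no role given, and the annotation is not given in the sources used here. RPKM carry no read counts, so depth and counting error are unknown.

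Groups were taken from title codes. RPKM were set to log2(RPKM + 1), genes with a mean under 1 RPKM were left out (8459 of 12388 genes above 0 remained), and limma 3.58.1 in R 4.3.3 fitted title code plus time with a variance trend, which leaves 6 residual degrees of freedom. All p-values are two-sided and adjusted over all genes tested. Fold changes on this scale understate those of low genes. The fit was tested on simulated data. Alternatives were pseudocounts of 0.1 and 5, no filter, 2 rescalings, no trend, exchanged title codes, and omitted columns. Single columns were compared as ratios without a test. The members and lists were chosen with earlier results of these data known. All 9 members are named, from the wider list the 10 enzymes called at 2 or more times with the largest mean change, each measured regulator, and the 2 genes most like each member by Pearson correlation. Some genes and a motif that these rules select are not reported here.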

Additional observations from a re-analysis of the deposited data

Results flagged for a closer look

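Several enzymes moved in opposite directions from their own 0 h value in different surgical groups. These differences were not tested, because each is between single columns. Values are log2 ratios of (RPKM + 1) in the order Control, BF, BA, followed by the gap between the highest and the lowest.

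At 4 h HAL stood at 0.03, 1.63 and -1.02, a gap of 2.65, and HGD at -0.32, 0.25 and -0.77, a gap of 1.03. At 12 h TAT stood at 1.01, -1.19 and -0.01, a gap of 2.20, TDO2 at 0.37, -0.62 and -0.01, a gap of 1.00, and HAL at 0.39, -0.20 and 0.36, a gap of 0.58. At 24 h SDS stood at -1.38, 0.46 and 2.10, a gap of 3.48. The other gaps at 24 h were 0.86 for HAL (-0.06, 0.80, 0.28), 0.77 for TAT (0.06, -0.32, 0.45) and 0.61 for TDO2 (0.07, -0.54, -0.48).

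The BF side of the 12 h gaps lies in the column with 128 RPKM of pancreatic acinar markers, and the BA side of the 4 h gaps in the column where albumin took 30.9% of the RPKM sum. Their part in these gaps was not tested.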

How the results depend on the processing

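Of 648 values of the 9 enzymes under the alternatives, 626 kept their direction and side of the threshold or were called in neither, 13 lost a call and 9 gained one. Only values of enzymes called as reported could lose a call, and between groups none was called. The 648 is therefore no measure of how often the calls held. No called value changed direction, and 32 values called in neither fit changed sign. At 24 h the count of enzymes called was 2 rather than 1 with columns rescaled on the median gene, 0 without the Control columns and 0 without the BA columns. At 12 h it was 3 rather than 5 without the BF columns, HPD and SDS losing the call. For BA against Control it was 1 rather than 0 without the BF 12 h column (BHMT) and 2 without the 12 h columns (CTH and BHMT), and for BF against BA it was 1 in each of these cases (BHMT). The cause was not tested, except that omitting columns leaves fewer of them. The fit without the BA 4 h column was chosen after seeing the data. Exchanging the title codes swaps the comparisons with Control and turns the sign of BF against BA.

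Over all genes, 3833 were called at 4 h, but 2489 without the Control, 2397 without the BF and 2160 without the BA columns. The 2664 at 12 h became 786 and 1136, and the 3056 at 24 h 871 and 743, without the Control and the BF columns. BF against Control had 68, but 2 without a filter, 10 without the BF 12 h column, and 3, 0, 36 and 13 without the 0, 4, 12 and 24 h columns. BA against Control had 6, and 0 to 15 under these settings, with 0 without the BA 4 h column. BF against BA had 1, and 0 to 3. RPKM give no read counts, so what depth limits cannot be stated. Replicate numbers pair no columns, since each group and time has 1 column, and the fits used group or time as the block.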
